A study of Mus musculus with 21 samples.

Results

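Blood vessels of a brain tumour are built from endothelial cells, from the mural cells that wrap them (pericytes and smooth muscle cells), and from the collagens, laminins and proteoglycans laid down around both. A set of 36 genes named for these components was examined by symbol on every array of a mouse medulloblastoma series: 16 endothelial genes, 6 mural genes, 7 genes of fibroblasts and interstitial matrix, and 7 genes of basement membrane or of matrix that several of these cells make. Of the 36, 35 had a probe set assigned to that gene alone, with 67 probe sets in all. In 28 genes (11 endothelial, 4 mural, 7 fibroblast and interstitial matrix, and 6 basement membrane) at least 1 probe set was bright enough to be tested among 12367 genes. The members were chosen by symbol for the cell or structure they mark.

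The 21 arrays measured RNA of primary cells from cerebellar tumours of Patched mice. Loss of Ptch1, which keeps the Hedgehog pathway silent in absence of ligand, lets granule neuron precursors grow into medulloblastoma. Cells labelled positive (6 arrays) or negative (6 arrays) for CD15, a surface carbohydrate of some progenitor cells, came from tumours named conventional, and cells labelled CD15 positive (4 arrays) or CD15 negative (5 arrays) came from tumours named Math1-GFP, after Math1 (Atoh1), which specifies granule neurons, and green fluorescent protein. The sample descriptions call all 21 tumours conventional, so the titles were followed. The labels give no allele, strain, age or gate beyond these words. Nothing in them states that each array stands for its own animal, so the p-values reflect only how these samples scatter, part of which may be technical. Every Math1-GFP title ends in a different suffix (le2) from every conventional title (le1), and whatever that suffix stands for cannot be told apart from the tumour model. Arrays are named here by the number in their title, and the unnumbered conventional arrays are called 1.

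Pericytes answer to platelet-derived growth factor made by endothelial cells through the receptor Pdgfrb and share a basement membrane of type IV collagen, laminin and nidogen with the endothelium. In the brain most vessels are capillaries with tight junctions and selective transporters, while fibroblasts that make fibrillar collagens (types I and III) and small proteoglycans such as decorin and lumican lie mainly in the meninges and around larger vessels. In RNA of whole fractions, fewer cells of a type and less RNA per cell cannot be told apart.

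All arrays had been scaled to the same trimmed mean signal of 150 (arbitrary intensity units), with array medians between 22.1 and 32.7. The mean log2 value of granule lineage markers, the cells named by the labels, lay between 10.2 and 11.1 on every array. Below, signals are linear intensities as deposited, and differences are on the log2(signal + 32) scale, which understates changes of dim genes. No gene's signal is set against another gene's, since probe sets differ in how strongly they bind.

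Several endothelial genes had low signals against the median of each array. Pecam1, the adhesion molecule CD31, never exceeded an array's own median signal on any of the 21 arrays (0 of 21), with signals from 0.650 to 22.9. Tie1, an endothelial receptor kinase, also lay below the median on every array, and Tek (the angiopoietin receptor Tie2) and Flt1 (a VEGF receptor) exceeded it on 1 array each. These 4 genes fell below the intensity filter, a mean log2 value that corresponds to a signal of 15.5, and were not tested. Ly6c1, a surface antigen of brain endothelium, was represented by a probe set shared with Ly6c2 and has no value of its own. Cdh5 (VE-cadherin, the adherens junction protein of endothelium) and Kdr (the main VEGF receptor) exceeded the array median on 6 arrays each. Emcn, Vwf, Slco1a4 and Slco1c1 did so on 7, 8, 9 and 11 arrays. Eng, Cd34, Esam and Cldn5 exceeded it on 13, 15, 15 and 19 arrays, and Egfl7 on 21.

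Among endothelial members that could be tested, Cldn5, the tight junction protein of brain capillaries, had the widest span on the log2 scale, with signals from 14.8 to 192.5. In conventional tumours its signal was lowest at 14.8, 64.4 at the median and 168.2 at the highest among CD15 positive arrays, and 32.7, 77.1 and 192.5 among CD15 negative arrays. In Math1-GFP tumours the CD15 positive arrays 1, 5, 7 and 9 gave 155.5, 89.2, 71.3 and 65.5, and the CD15 negative arrays 2, 4, 6, 8 and 10 gave 40.7, 118.6, 62.1, 70.5 and 68.7. The 4 groups overlapped throughout, and conventional arrays 5 were the highest of their group in both fractions. The blood-brain barrier transporters were also highest of their conventional groups on arrays 5. Slco1c1, a thyroid hormone carrier, gave 82.1 and 84.6 on these arrays (CD15 positive and negative) against group medians of 20.0 and 19.8. Slco1a4, an organic anion carrier, gave 81.6 and 88.8 there against medians of 16.3 and 17.5. Other arrays did not all go together. On conventional CD15 positive array 2 Cldn5 was 158.4, while Slco1a4 was 1.79, its lowest signal on any array.

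Of the other endothelial members Egfl7, a secreted protein of endothelium, varied least and stayed between 46.7 and 92.4 and was the single endothelial member above the array median on all 21 arrays. Vwf (von Willebrand factor, stored in endothelial granules) was 7.08, 28.3 and 55.7 at the lowest, median and highest CD15 positive conventional arrays and 7.53, 25.2 and 40.1 on the CD15 negative ones. Its Math1-GFP signals were 39.4, 13.4, 8.57 and 2.09 on CD15 positive arrays 1, 5, 7 and 9, and 10.8, 13.6, 14.3, 19.5 and 12.8 on CD15 negative arrays 2, 4, 6, 8 and 10. Emcn, the sialomucin of capillary and venous endothelium, had medians of 14.7 (CD15 positive) and 30.7 (CD15 negative) in conventional tumours and 13.6 and 19.3 in Math1-GFP tumours. Eng, a TGF-beta co-receptor of endothelium, had medians of 31.4 and 44.4 in conventional tumours and 33.0 and 17.0 in Math1-GFP tumours. The ranges of Vwf and Emcn overlapped between all groups. Those of Eng did not in the CD15 negative fractions, where the conventional arrays (36.1 to 59.1) all lay above the Math1-GFP arrays (8.71 to 33.2). Eng was not called in the main comparison of models below, which called 39.2% of all genes. How many of all genes part in this way was not counted. Esam, Cd34, Cdh5 and Kdr spanned 16.2 to 73.7, 1.03 to 70.6, 0.558 to 50.9 and 1.07 to 37.0 over the 21 arrays.

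Mural genes were highest on other arrays. Rgs5, a regulator of G-protein signalling that marks pericytes, gave signals in conventional tumours of 44.5, 90.02 and 260.1 at the lowest, median and highest CD15 positive arrays and 69.5, 219 and 638 on CD15 negative arrays. Arrays 2 and 4 of the CD15 negative fraction, at 614 and 638, stood above all other arrays. In Math1-GFP tumours Rgs5 was 208, 79.5, 73.5 and 90.6 on CD15 positive arrays 1, 5, 7 and 9, and 37.9, 125.2, 78.8, 57.7 and 122.5 on CD15 negative arrays 2, 4, 6, 8 and 10. Pdgfrb, the receptor through which pericytes are recruited, gave 0.894, 15.3 and 31.8 on CD15 positive and 3.12, 50.8 and 165 on CD15 negative conventional arrays. Its highest signals, 165 and 96.5, were again on CD15 negative arrays 4 and 2. On Math1-GFP arrays it was 33.8, 7.65, 6.84 and 4.13 (CD15 positive) and 0.461, 2.65, 0.265, 2.59 and 11.98 (CD15 negative), below its conventional CD15 negative median on all 9 arrays.

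Acta2, smooth muscle actin, gave 63.0, 126 and 469 on CD15 positive and 65.0, 233 and 499 on CD15 negative conventional arrays, with arrays 2 the highest of both fractions. In Math1-GFP tumours it was 345 on CD15 positive array 1 and 51.7 to 125.2 on the other CD15 positive arrays, and 46.1 to 80.8 on the CD15 negative arrays. Its promoter window of 300 bases around the annotated start in RefSeq (GRCm38.p6, chr19:34255324-34255623, minus strand) is shown because Acta2 was the single mural member with a negative CD15 difference in every one of the 5 numbered pairs. The capitals mark the reverse complement of CATTCC, the core of the M-CAT element bound by TEAD factors.

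Acta2: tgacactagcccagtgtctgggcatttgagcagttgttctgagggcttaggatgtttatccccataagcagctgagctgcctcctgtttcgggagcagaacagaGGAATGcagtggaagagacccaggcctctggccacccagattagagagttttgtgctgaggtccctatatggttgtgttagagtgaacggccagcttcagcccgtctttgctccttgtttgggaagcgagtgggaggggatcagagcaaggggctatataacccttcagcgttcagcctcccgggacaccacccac

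CATTCC was searched on both strands and was found in 5 of 26 windows of 23 members (Acta2, Col3a1, Emcn, Nid1 and Slco1c1), against 14.7% of 32851 mouse promoter windows of the same length. TATAAA was found in 4 of the 26 windows against 13.6% of all, and an exact CArG box, the serum response factor element, in 0 of 26 against 1.63%. The exact box allows only A and T between CC and GG. The Acta2 window holds the near matches ccctatatgg and ccttgtttgg, which were not counted because of a c or a g inside. These are matches of letters and say nothing about binding. Tagln, an actin-binding protein of smooth muscle, was dim (median 6.43 over 21 arrays) except on 4 conventional arrays and Math1-GFP CD15 positive array 1, where it reached 110.3. Anpep (pericyte aminopeptidase) and Myh11 (smooth muscle myosin) exceeded the array median on 1 array each and were not tested.

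The fibroblast and interstitial matrix genes spanned the most between arrays on the log2 scale. Lum, the proteoglycan lumican, was 14.5, 62.2 and 174 on CD15 positive and 22.2, 88.9 and 801 on CD15 negative conventional arrays, its highest signal 27.9 times its median over the 21 arrays. On Math1-GFP arrays it was 45.5, 18.3, 20.2 and 17.5 (CD15 positive arrays 1, 5, 7 and 9) and 9.36, 6.59, 14.1, 30.2 and 17.8 (CD15 negative arrays 2, 4, 6, 8 and 10). Conventional arrays 2 and 4 exceeded every Math1-GFP array in both fractions, while the lowest conventional arrays, at 14.5 and 22.2, lay within the Math1-GFP range. Mgp, an inhibitor of calcification made by vascular and perivascular cells, was 59.6, 137 and 801 on CD15 positive and 70.7, 208 and 1628 on CD15 negative conventional arrays, with array 4 the highest of both fractions. Its Math1-GFP signals were 360.3, 37.8, 55.8 and 61.1 (CD15 positive) and 23.5, 57.5, 8.60, 46.9 and 63.4 (CD15 negative), so that array 1 alone of the 9 lay above the conventional medians.

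Type I collagen is a trimer of the Col1a1 and Col1a2 chains. Col1a2 gave 27.2, 45.1 and 266 on CD15 positive and 31.2, 81.4 and 564 on CD15 negative conventional arrays, and its CD15 negative arrays 2 and 4 reached 564 and 538 while arrays 1, 3 and 6 gave 31.2, 52.4 and 32.6. On Math1-GFP arrays it was 70.1, 40.3, 32.8 and 43.1 (CD15 positive) and 34.9, 40.7, 47.9, 36.7 and 36.01 (CD15 negative). The SD of its log2 value was 1.51 over the conventional CD15 negative arrays (n = 6) and 0.10 over the Math1-GFP CD15 negative arrays (n = 5). Col1a1 gave 1.27, 11.4 and 87.7 on CD15 positive and 15.2, 34.6 and 198 on CD15 negative conventional arrays, against 19.4, 2.12, 0.993 and 1.87 on CD15 positive and 10.98, 4.53, 24.5, 13.7 and 7.48 on CD15 negative Math1-GFP arrays. Bgn, the proteoglycan biglycan, gave 55.4, 132 and 374 on CD15 positive and 57.1, 159 and 563 on CD15 negative conventional arrays, against 129, 75.2, 56.8 and 95.1 and 29.8, 61.5, 63.4, 54.2 and 52.8 on the Math1-GFP arrays. Col3a1, the type III collagen chain, gave 43.3, 138 and 285 on CD15 positive and 18.1, 177 and 1009 on CD15 negative conventional arrays, and 134.5, 200.5, 35.7 and 26.4 and 61.7, 44.6, 100.6, 30.9 and 39.3 on the Math1-GFP arrays. Dcn (decorin) ran from 13.2 to 219.9 and from 14.2 to 908 in the conventional fractions and from 22.9 to 109.6 over the Math1-GFP arrays. For all of these genes the lowest conventional arrays lay within or close to the Math1-GFP range.

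Among basement membrane and shared matrix genes, Col4a1 and Col4a2, the ubiquitous chains of type IV collagen, together with Sparc and Fn1, exceeded the array median on all 21 arrays. Col4a1 gave 165, 330.2 and 422 on CD15 positive and 145, 299 and 835 on CD15 negative conventional arrays. On Math1-GFP arrays it gave 501, 639, 360 and 178 (CD15 positive) and 158, 340 and 464 on CD15 negative arrays 2, 4 and 6, with 221 and 99.98 on arrays 8 and 10. The 2 genes lie head to head on chromosome 8. Their RefSeq promoter windows (GRCm38.p6) are shown because their signals moved together over the arrays: Col4a1 at chr8:11312777-11313076 on the minus strand and Col4a2 at chr8:11312555-11312854 on the plus strand. The capitals mark the 78 bases that the windows share, read on opposite strands.

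Col4a1: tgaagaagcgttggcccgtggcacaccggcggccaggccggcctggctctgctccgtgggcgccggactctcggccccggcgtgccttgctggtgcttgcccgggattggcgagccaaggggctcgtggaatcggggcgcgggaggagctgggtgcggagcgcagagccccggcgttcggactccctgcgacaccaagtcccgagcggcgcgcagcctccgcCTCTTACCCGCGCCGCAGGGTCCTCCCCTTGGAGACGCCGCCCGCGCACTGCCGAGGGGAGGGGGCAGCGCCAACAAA

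Col4a2: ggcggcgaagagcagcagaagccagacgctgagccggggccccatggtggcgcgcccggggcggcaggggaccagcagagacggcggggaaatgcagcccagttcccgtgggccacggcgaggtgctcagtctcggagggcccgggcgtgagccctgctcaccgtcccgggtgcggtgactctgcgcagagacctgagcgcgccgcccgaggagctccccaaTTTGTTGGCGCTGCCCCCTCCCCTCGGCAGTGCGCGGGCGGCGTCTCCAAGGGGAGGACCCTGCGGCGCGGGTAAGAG

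Over the 11 CD15 negative arrays Col4a1 and Col4a2 correlated with Pearson's r = 0.93 (permutation p = 1e-05, the smallest that 100000 permutations can give, Benjamini-Hochberg adjusted p = 5e-05) and Spearman's rho = 0.97 (permutation p = 2e-05). Without the 2 arrays farthest from the Col4a1 median r was 0.90, and over the 6 conventional arrays alone it was 0.91 (exact permutation p = 0.00972). Over the 10 CD15 positive arrays r was 0.92 (permutation p = 5e-05, adjusted p = 0.000167), rho was 0.94 (permutation p = 0.00016), r without the 2 farthest arrays was 0.89, and r over the 6 conventional arrays was 0.88 (exact permutation p = 0.0347). The points share scaling and many share a tumour model, and 10 such correlations were computed. Conventional title numbers recur in both fractions, so the fractions may not be independent of each other.

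Sparc, a matricellular protein of matrix and of astrocytes, had the widest log2 span of the basement membrane genes within each model. It was 76.3, 402 and 2909 on CD15 positive and 118.3, 441 and 1954 on CD15 negative conventional arrays, with arrays 2 the highest of both fractions. Math1-GFP CD15 positive array 1 gave 1328, against 203, 59.6 and 216 on arrays 5, 7 and 9 and 64.5 to 117.5 on the 5 CD15 negative arrays. Fn1 (fibronectin) gave 51.9, 203 and 505 on CD15 positive and 39.6, 217 and 590.1 on CD15 negative conventional arrays, against 299.8, 121, 69.2 and 86.9 and 66.7, 82.4, 59.0, 69.3 and 75.6 on the Math1-GFP arrays. Nid1 (nidogen, which links laminin to type IV collagen) ran from 47.8 to 169 and from 22.8 to 407 in the conventional fractions and from 22.0 to 121 over the Math1-GFP arrays. Lamb1, a laminin beta chain, gave 5.23, 21.5 and 36.4 on CD15 positive and 11.4, 45.7 and 89.1 on CD15 negative conventional arrays. Its Math1-GFP signals were 33.9, 16.7, 13.6 and 28.4 (CD15 positive) and 50.4, 32.4, 11.7, 34.8 and 30.7 (CD15 negative). Lama4, the laminin alpha chain of endothelial basement membrane, fell below the filter, with a median of 9.89.

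**Figure D1:**
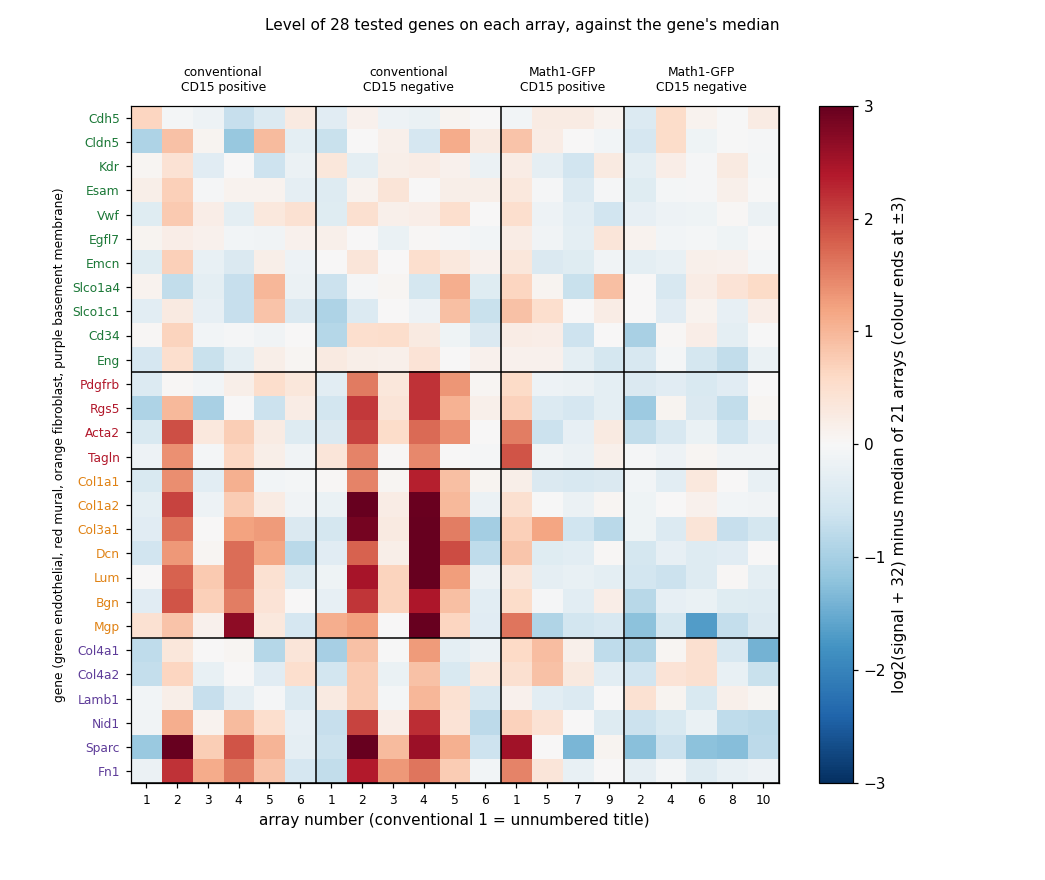
Level of the 28 tested genes (vertical axis, grouped by role) on each of the 21 arrays (horizontal axis, by group and title number) as log2(signal + 32) minus the gene's median over the 21 arrays, with the colour scale ending at 3 in either direction. Mural, fibroblast and several basement membrane genes are darkest on conventional arrays 2 and 4, Cldn5, Slco1a4 and Slco1c1 on conventional arrays 5, and array 1 is the highest of the Math1-GFP CD15 positive group for 4 of 4 mural and 6 of 7 fibroblast genes.

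In the conventional CD15 negative fraction, most endothelial genes were highest on other arrays than the mural and fibroblast genes. In the conventional CD15 negative fraction, arrays 2 and 4 were the 2 highest for 4 of 4 mural genes, 6 of 7 fibroblast genes and 6 of 6 basement membrane genes, but for 1 of 11 endothelial genes (Emcn). Array 5 was the highest for 4 of the 11 endothelial genes and for 0 genes of the other roles. On the CD15 positive arrays it was the highest for 3 of 11 endothelial genes and for 1 of 4 mural genes (Pdgfrb). In the CD15 positive fraction arrays 2 and 4 were the 2 highest for 2 of 4 mural, 6 of 7 fibroblast, 3 of 6 basement membrane and 0 of 11 endothelial genes. Array 2 or array 4 was however the single highest for 7 of the 11 endothelial genes in that fraction, so the roles were less separated there. CD15 positive array 4 had the lowest endothelial mean log2 value of its group (5.61). Its fibroblast mean was 7.86, below only that of array 2 (7.89). On the log2 scale, the span from the lowest to the highest of the 12 conventional arrays had a median of 1.17 over endothelial, 2.53 over mural, 4.16 over fibroblast and 2.65 over basement membrane genes, against 0.96, 1.92, 1.37 and 1.70 over the 9 Math1-GFP arrays. Within the Math1-GFP CD15 positive group, array 1 was the highest for 4 of 4 mural, 6 of 7 fibroblast, 4 of 6 basement membrane and 7 of 11 endothelial genes. These are descriptions. Fits without conventional arrays 2 and 4 or Math1-GFP array 1, given below, leave out arrays that were picked for these high levels.

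Markers of other cells differed between the same arrays. The mean log2 value of 13 microglia and macrophage markers was 9.23 and 9.68 on conventional CD15 positive arrays 2 and 4 and 8.32 on array 5, against 6.48 to 6.97 on arrays 1, 3 and 6. On the CD15 negative arrays it was 7.90, 7.96 and 8.26 on arrays 2, 4 and 5 and 5.86 to 6.61 on arrays 1, 3 and 6. Over the Math1-GFP arrays it was 5.76 to 6.27 except on CD15 positive array 1, at 7.40. The mean of 10 astrocyte markers was highest, 9.21, on the same Math1-GFP array and lay between 6.62 and 7.45 on the other 8, with conventional arrays between 6.37 and 8.19. The 12 other mural genes and 27 other fibroblast and matrix genes were also highest on conventional arrays 2 and 4 in both fractions (7.26 to 7.74 and 7.87 to 8.14), and below 6.90 and 7.60 on the other conventional arrays. The part of these other cells in the levels of the vessel genes was not tested.

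**Figure D2:**
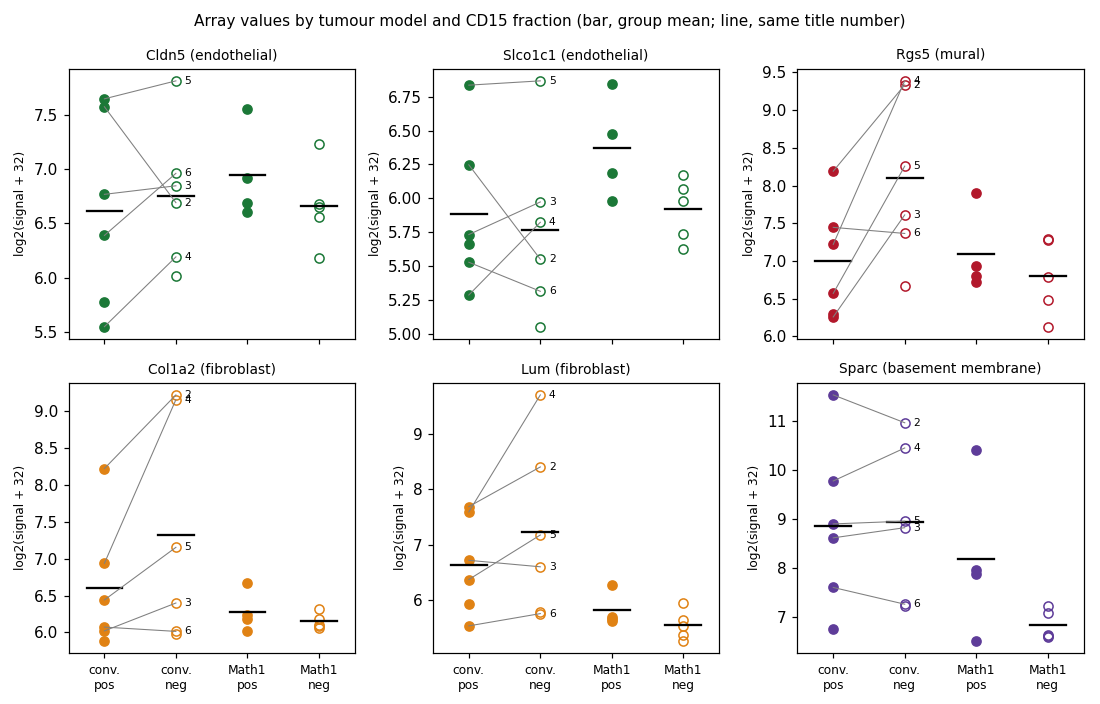
log2(signal + 32) of 6 genes (vertical axes) on each array by tumour model and CD15 fraction (horizontal axes), with a bar at the group mean and lines joining conventional arrays of the same title number. Rgs5, Col1a2 and Lum are higher on the CD15 negative than the CD15 positive array of pairs 2, 4 and 5, while Cldn5 and Slco1c1 have their highest conventional arrays in pair 5.

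The first comparison asks whether vessel and matrix genes differ between CD15 positive and CD15 negative cells of conventional tumours. All 11 mural and fibroblast genes had lower means in CD15 positive cells, with a median log2 difference of -0.61 over the mural and -0.56 over the fibroblast genes, while the 11 endothelial genes had a median of 0.02, close to -0.02 over all genes. The 6 basement membrane genes also had lower means, with a median of -0.16, though 1 of them turned positive under quantile normalization. In the fit of 4 group means, limma with Benjamini-Hochberg adjustment over all genes called 0 of the 28 members, against 8.13% of all genes called in either direction and 5.09% called lower in CD15 positive cells. At an unadjusted p under 0.05 there were 3. Rgs5 differed by -1.11 ± 0.42 (SE, adjusted p = 0.119), Lamb1 by -0.54 ± 0.21 (adjusted p = 0.128) and Pdgfrb by -0.75 ± 0.31 (adjusted p = 0.158). The other mural and fibroblast differences had adjusted p-values of 0.398 or more, such as Col1a2 at -0.72 ± 0.50 and Lum at -0.60 ± 0.52. Endothelial differences ran from -0.31 ± 0.18 for Eng to 0.12 ± 0.27 for Slco1c1, and Cldn5 was at -0.14 ± 0.34.

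The titles number 5 conventional arrays of each fraction from 2 to 6, and same-numbered arrays deviated together. A fit with the title number as a replicate block left out the unnumbered conventional arrays and kept the Math1-GFP arrays. In it limma called 3 members lower in CD15 positive cells, where 6.33% of all genes were called lower. They were Rgs5 (-1.25 ± 0.31, adjusted p = 0.0169), Col1a2 (-0.85 ± 0.23, adjusted p = 0.0278) and Pdgfrb (-0.88 ± 0.25, adjusted p = 0.0369). Pdgfrb passed the intensity filter only through the conventional CD15 negative arrays, where it is high, which limits what its call means. In the 5 numbered pairs alone the block called Rgs5, Acta2 and Lamb1, with Col1a2 and Pdgfrb at adjusted p = 0.0606 and 0.0604. Both fits left out the unnumbered arrays. There the CD15 positive and negative signals were 46.6 and 69.5 for Rgs5, 27.2 and 31.2 for Col1a2, and 0.894 and 3.12 for Pdgfrb. The block and the left-out arrays changed together, so these calls cannot be credited to the block alone. In the block fit that kept the Math1-GFP arrays, a further 4 genes had an unadjusted p under 0.05: Lamb1, Col1a1, Lum and Dcn. Their adjusted p-values lay between 0.0571 and 0.111. None of the 11 endothelial genes had an unadjusted p under 0.05 in this fit (0 of 11, median -0.11), and their largest difference was -0.25 ± 0.17 for Emcn. The mural and fibroblast medians were -0.72 and -0.66.

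Within pairs, CD15 positive minus CD15 negative, Rgs5 differed by -1.14, -1.35, -2.17 and -1.69 (log2) in pairs 2, 3, 4 and 5 and by 0.08 in pair 6. Col1a2 differed by -0.998, -0.38, -2.22, -0.71 and 0.06, and Pdgfrb by -1.50, -0.41, -1.996, -0.78 and 0.28, in pairs 2 to 6. Both were lower in the CD15 positive array of 4 of 5 pairs, with the largest difference in pair 4 and the opposite sign in pair 6. Acta2, Col1a1 and Dcn had negative differences in 5 of 5 pairs, with Acta2 at -0.09, -0.25, -0.96, -1.13 and -0.40. The median over the 7 fibroblast genes was -0.48, -0.12, -1.90, -0.71 and -0.03 in pairs 2 to 6, and over the 4 mural genes -0.63, -0.33, -1.48, -0.96 and 0.00. The median over the 11 endothelial genes was 0.33, -0.25, -0.49, -0.09 and 0.19, positive in pairs 2 and 6. For Cldn5 the difference was 0.88 in pair 2 and between -0.64 and -0.08 in the other 4 pairs. Pair 4, in which the mural and matrix genes differed most, thus also held the lowest endothelial median.

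**Figure D3:**
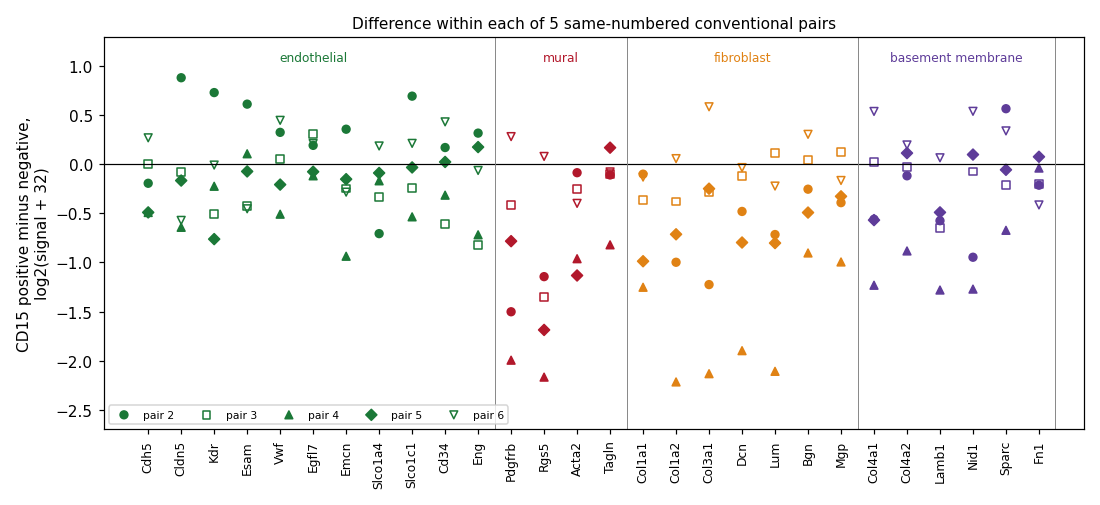
Difference in log2(signal + 32) between the CD15 positive and the CD15 negative array of each of the 5 numbered conventional pairs (vertical axis, 0 where equal) for each of the 28 tested genes (horizontal axis, by role). Mural and fibroblast genes lie mostly below 0, farthest in pair 4 (Col1a2 at -2.22), while endothelial genes lie on both sides of 0. Pair 6 runs from -0.57 (Cldn5) to 0.59 (Col3a1).

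In fits of part of the conventional arrays, within arrays 2 to 5, whose titles are worded alike, Rgs5, Pdgfrb and Col1a2 differed by -1.59, -1.17 and -1.08. Within the unnumbered arrays and arrays 6, a split chosen after seeing the data, they differed by -0.14, 0.09 and -0.02. In either fit limma called 0 members. The titles of arrays 6 differ from those of arrays 2 to 5 in little more than spacing and case. The unnumbered titles are worded differently from both. Without conventional arrays 2 and 4 of both fractions, which were picked for their high levels, limma called 0 of the 28 members, with 2 at an unadjusted p under 0.05, and Rgs5, Pdgfrb and Col1a2 moved to -0.83, -0.25 and -0.28, with 10 of the 11 mural and fibroblast genes still negative. In the same pairs the microglia markers ran the other way, with a median of 0.61 over 13 genes in the fit without the block (0 called) and 0.79 with it (5 called higher in CD15 positive cells). The 8 neuronal differentiation markers were all called lower in CD15 positive cells in both fits (median -1.18 without the block). The part of these cells in the mural and matrix differences was not tested.

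In Math1-GFP tumours the same contrast had a positive sign for most members. The medians were 0.41 over mural, 0.35 over fibroblast, 0.65 over basement membrane and 0.08 over endothelial genes, against 0.00 over all genes, and 23 of the 28 members were higher in CD15 positive cells. None passed (0 of 28 by limma, and 0 at an unadjusted p under 0.05), against 0.0404% of all genes. Sparc had the largest difference, 1.36 ± 0.87 (SE, adjusted p = 0.721), followed by Mgp at 0.83 ± 0.68 and Nid1 at 0.76 ± 0.49. Without Math1-GFP arrays 1 and 2 the mural, fibroblast and basement membrane medians were 0.06, 0.07 and 0.36, and the endothelial median was -0.07. Astrocyte markers had a median of 1.06 over 10 genes and microglia markers of 0.46 over 13 genes in this contrast (0 called in each), and their part in it was not tested.

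The difference between the models in the CD15 contrast was tested as an interaction. All 17 mural, fibroblast and basement membrane genes had a positive interaction term, and 9 of 11 endothelial genes did, with medians of 1.11, 0.86, 0.80 and 0.08. limma called 0 of the 28, as it called 0 of all genes (percent called 0), and 3 members had an unadjusted p under 0.05: Pdgfrb at 1.06 ± 0.48, Rgs5 at 1.40 ± 0.65 and Eng at 0.57 ± 0.27, with an adjusted p of 0.9998 for Pdgfrb and Rgs5. With the replicate block 10 members had an unadjusted p under 0.05 and 0 were called, the smallest adjusted p being 0.888. Averaged over both tumour models, the CD15 difference was called in 0 of 28 members against 9.74% of all genes, with 1 at an unadjusted p under 0.05 (Lamb1, -0.37 ± 0.16, adjusted p = 0.159), and the medians were 0.02 over endothelial, -0.06 over mural, -0.12 over fibroblast and 0.25 over basement membrane genes.

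**Figure D4:**
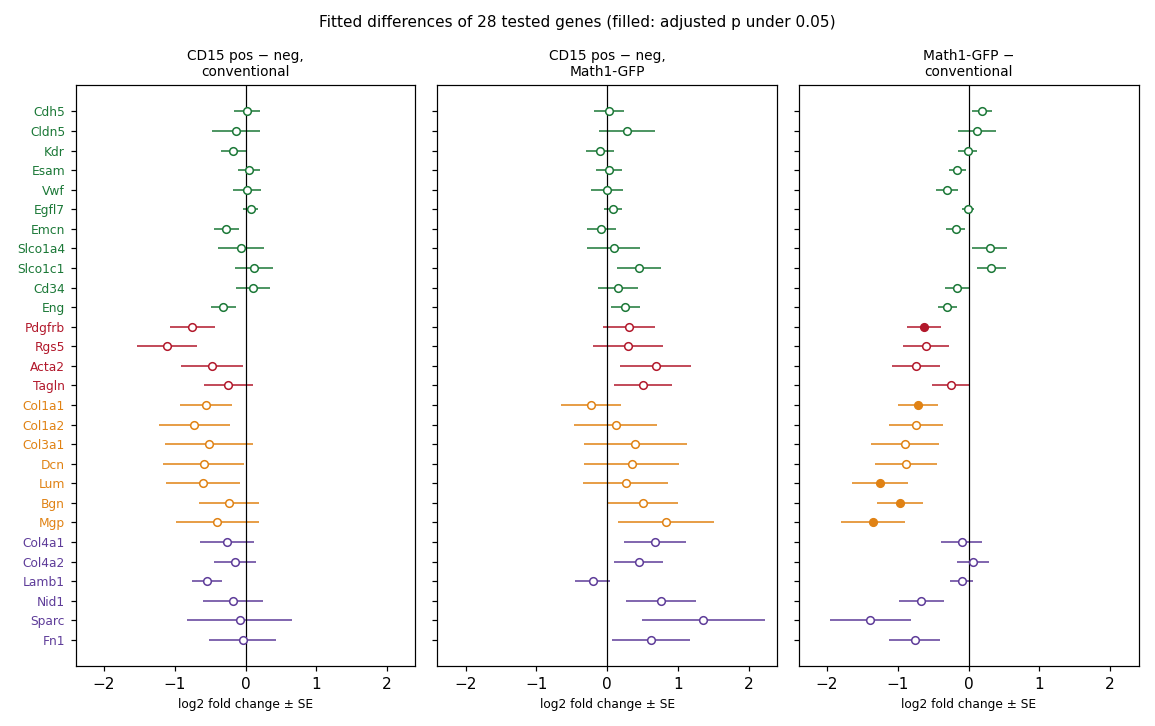
Fitted log2 fold change ± SE (horizontal axes) of the 28 tested genes (vertical axis, coloured by role) for CD15 positive minus negative in conventional tumours, the same in Math1-GFP tumours, and Math1-GFP minus conventional. Filled points passed an adjusted p of 0.05: none in either CD15 comparison, and Lum, Mgp, Bgn, Col1a1 and Pdgfrb, all lower in Math1-GFP, in the comparison of models.

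Averaged over both fractions, 1 of 4 mural and 4 of 7 interstitial matrix genes were lower on Math1-GFP than on conventional arrays, and the endothelial median was close to that of all genes. limma called 5 of the 28 members, all lower in Math1-GFP: Lum (-1.25 ± 0.40, adjusted p = 0.0171), Mgp (-1.35 ± 0.45, adjusted p = 0.0214), Bgn (-0.97 ± 0.33, adjusted p = 0.0238), Pdgfrb (-0.63 ± 0.24, adjusted p = 0.0411) and Col1a1 (-0.71 ± 0.28, adjusted p = 0.0477). Pdgfrb and Col1a1 had mean log2 values below the intensity filter in both Math1-GFP groups and passed it only through conventional arrays. They were thus admitted through the model in which they are high, which limits what their calls mean. Of the 11 endothelial and the 6 basement membrane genes 0 were called. The models differed in 39.2% of all genes, with 20.5% lower and 18.7% higher in Math1-GFP, so that the 17.9% of members called lower were no more frequent than lower genes overall. Quantile normalization changed the split over all genes from 2309 higher and 2536 lower to 1796 higher and 3055 lower, called 9 members including the endothelial gene Eng, and moved the endothelial median from -0.01 to -0.15. At an unadjusted p under 0.05 there were 9 members.

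All 11 mural and fibroblast genes had negative differences, with medians of -0.62 and -0.89. The endothelial median was -0.01, with 7 genes lower and 4 higher, and the all-gene median was -0.01. Sparc had the largest difference without passing (-1.39 ± 0.57, adjusted p = 0.0588). The type IV collagen chains Col4a1 and Col4a2 were at -0.10 ± 0.29 and 0.06 ± 0.23, and Cldn5 and Slco1c1 at 0.12 ± 0.26 and 0.32 ± 0.21. Leaving out the unnumbered conventional arrays and treating the title number as a random replicate block (18.7% of all genes lower) gave 9 called members. Acta2, Dcn, Fn1 and Sparc were added, again with 0 endothelial genes. The same arrays without the block gave still more called members, so the added calls cannot be credited to the block.

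Without conventional arrays 2 and 4, which were picked because these genes were highest there and whose removal must shrink the difference, 0 members were called (2 at an unadjusted p under 0.05), and Lum, Mgp and Bgn moved from -1.25, -1.35 and -0.97 to -0.55, -0.73 and -0.38. Leaving out Math1-GFP CD15 positive array 1 as well gave 2, Lum and Mgp. Leaving out that array alone gave 9, and leaving out any 1 of the other arrays gave 2 to 9 (2 without Math1-GFP CD15 positive array 5 or 7, 9 without conventional CD15 negative array 1 and 8 without array 6, and 3 without conventional arrays 2 or 4 of either fraction). Over all alternative settings Pdgfrb lost its call in 18 of 31 and Col1a1 in 18 of 32, Bgn and Mgp in 3 of 33 each and Lum in 1 of 33, and all values stayed negative. The microglia markers fell with the matrix genes between models, 11 of 13 called lower (20.5% of all genes) with a median of -1.22 (Tyrobp -1.92 ± 0.49, C1qa -1.95 ± 0.50 and C1qb -1.64 ± 0.47), and their part in the result was not tested.

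Different probe sets of a gene mostly moved alike. Of 8 members with several probe sets past the filter, 1 (Egfl7) had a probe set of opposite sign in the conventional CD15 contrast and 3 (Col4a1, Egfl7 and Rgs5) in the comparison of models. For Egfl7 1 other probe set was lower in Math1-GFP (-0.38, adjusted p = 0.00624) while the one used was at -0.01, so its direction is uncertain. Another Egfl7 probe set was called higher in CD15 positive cells averaged over both models (0.48, limma on every probe set, adjusted p = 0.0148). It was at 0.41 in conventional (adjusted p = 0.13) and 0.55 in Math1-GFP tumours (adjusted p = 0.314). The Egfl7 probe set used was at 0.08 in the averaged contrast and was not called. All 4 probe sets of Rgs5 were lower in CD15 positive conventional cells, from -1.11 to -0.41, while between models they ran from -0.74 to 0.14.

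Genes of one role were compared with each other within each CD15 fraction. Col1a1 and Col1a2 correlated with r = 0.95 over the 11 CD15 negative arrays (permutation p = 0.00085, adjusted p = 0.0017, rho = 0.65 with permutation p = 0.0374) and r = 0.92 over the 10 CD15 positive arrays (permutation p = 0.00025, adjusted p = 0.000625, rho = 0.84 with permutation p = 0.00382). Without the 2 farthest arrays, conventional 2 and 4 in both fractions, r was 0.85 and 0.76. The pericyte genes Pdgfrb and Rgs5 correlated in the CD15 negative fraction (r = 0.95, permutation p = 1e-05, adjusted p = 5e-05, rho = 0.91 with permutation p = 0.00036, r = 0.87 without the 2 farthest) but in the CD15 positive fraction r was 0.48 (permutation p = 0.162, adjusted p = 0.202, rho = 0.47 with permutation p = 0.179, r = 0.62 without the 2 farthest). Over the 6 conventional arrays alone r was 0.95 and 0.93 for the collagen chains (exact permutation p = 0.0125 and 0.00417) and 0.96 and 0.28 for the pericyte genes (exact permutation p = 0.00556 and 0.578), CD15 negative first. Whether the fractions differ in this was not tested.

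The brain endothelial genes Cldn5 and Slco1c1 correlated in the CD15 positive fraction (r = 0.87, permutation p = 0.00129, adjusted p = 0.00215, rho = 0.88 with permutation p = 0.00156, r = 0.82 without the 2 farthest, and r = 0.89 with exact permutation p = 0.0153 over the 6 conventional arrays). In the CD15 negative fraction r was 0.55 (permutation p = 0.0847, adjusted p = 0.121, rho = 0.10 with permutation p = 0.776) and rested on conventional arrays 5 and 1, since r was -0.47 without them. Its value over the 6 conventional CD15 negative arrays was 0.79 (exact permutation p = 0.0611). Across roles, Cldn5 and Rgs5 gave r = 0.21 (permutation p = 0.542, adjusted p = 0.542, rho = 0.46 with permutation p = 0.153, r = -0.08 without the 2 farthest) on CD15 negative and r = 0.37 (permutation p = 0.293, adjusted p = 0.326, rho = 0.12 with permutation p = 0.759, r = 0.39 without the 2 farthest) on CD15 positive arrays, and 0.06 and 0.25 over the conventional arrays alone (exact permutation p = 0.91 and 0.622).

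**Figure D5:**
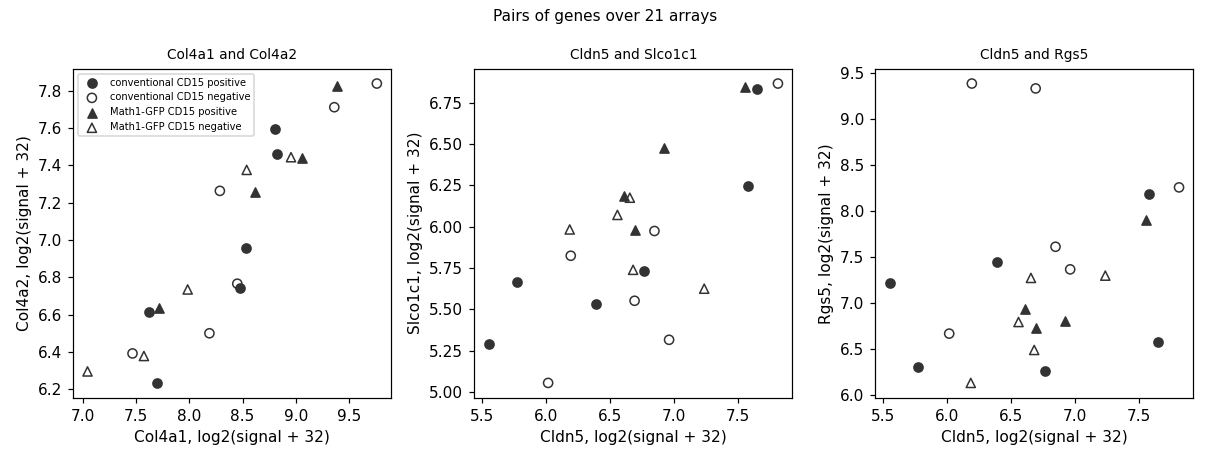
log2(signal + 32) on the 21 arrays of Col4a2 against Col4a1, Slco1c1 against Cldn5, and Rgs5 against Cldn5 (vertical against horizontal axes), with filled symbols for CD15 positive, open symbols for CD15 negative, circles for conventional and triangles for Math1-GFP arrays. The type IV collagen chains lie along a line (r = 0.93 and 0.92 in the CD15 negative and positive fractions), and the endothelial gene Cldn5 and the pericyte gene Rgs5 do not (r = 0.21 and 0.37).

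Further genes of the vessel wall were read from lists of the same roles. In conventional tumours the CD15 contrast called 0 of 21 other endothelial, 0 of 12 other mural and 0 of 27 other fibroblast and matrix genes (limma; 0, 1 and 5 at an unadjusted p under 0.05), with medians of 0.03, -0.01 and 0.01, close to the median of all genes and unlike those of the mural and fibroblast members. With the replicate block 2 of the 27 were called lower. Among 32 vascular growth factors and regulators 2 were lower in CD15 positive cells, near the 5.09% of all genes called lower: Efnb2, the ephrin of arterial endothelium (-0.86 ± 0.26, adjusted p = 0.0446), and Nrp2, a VEGF and semaphorin co-receptor (-0.65 ± 0.19, adjusted p = 0.0381). Of the markers of other cells, Neurod1 was lower (-1.08 ± 0.26) and Gli1 higher (0.70 ± 0.21) among 8 granule lineage genes, and Mapt, Dcx and Snap25 led the neuronal genes (-1.55 ± 0.16, -1.22 ± 0.19 and -0.83 ± 0.15). In Math1-GFP tumours 0 genes of these 4 vessel wall lists were called, with 0, 2, 4 and 1 at an unadjusted p under 0.05.

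Between models, where 20.5% of all genes were lower and 18.7% higher in Math1-GFP, other mural genes were lower in 5 of 12 cases and higher in 0, among them the pericyte transcription factors Foxf2 (-1.83 ± 0.29, adjusted p = 5.59e-05) and Tbx18 (-1.85 ± 0.40, adjusted p = 0.00115) and Ndufa4l2 (-0.58 ± 0.17, adjusted p = 0.0104). Other endothelial genes were lower in 4 and higher in 2 of 21 cases, led by Ramp2, the adrenomedullin receptor partner (-1.37 ± 0.23, adjusted p = 9.21e-05), Mfsd2a, the lipid carrier of the blood-brain barrier (-0.55 ± 0.15, adjusted p = 0.00777), and Nos3, endothelial nitric oxide synthase (-0.32 ± 0.10, adjusted p = 0.0191). Other fibroblast and matrix genes were lower in 5 and higher in 2 of 27 cases, with Timp3, an inhibitor of matrix proteases, at -1.23 ± 0.28 (adjusted p = 0.00156), the basement membrane proteoglycan Agrn at -0.81 ± 0.21 (adjusted p = 0.00443) and Pdgfra, which oligodendrocyte precursors also express, at 1.75 ± 0.29 (adjusted p = 7.95e-05). Growth factors and regulators were lower in 7 and higher in 4 of 32 cases. In these last 3 lists the share lower lay near that of all genes, while the share higher lay below it. Among the growth factors and regulators Tgfb2 was at -1.43 ± 0.28 (adjusted p = 0.000486) and the matricellular protein Ccn1 at -1.49 ± 0.43 (adjusted p = 0.00973). The Wnt and Norrin receptor Fzd4 was at 0.51 ± 0.15 (adjusted p = 0.00973). Of the markers of other cells, 3 of 10 astrocyte genes were higher (among them Slc1a2, 0.59 ± 0.18) and 1 lower (Gja1, -1.64 ± 0.54). Of 7 oligodendrocyte lineage genes 2 were higher (Mbp, 0.63 ± 0.15, and Pdgfra) and 1 lower (Cnp, -0.76 ± 0.28). Of 8 granule lineage genes 2 were higher (Pax6, 1.03 ± 0.26, and Atoh1, 0.71 ± 0.26), and of 8 neuronal differentiation genes 2 were lower (Cntn2, -1.11 ± 0.33, and Snap25, -0.30 ± 0.12). No erythroid marker (0 of 6) had a tested probe set.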

How the data were processed

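RNA of 21 samples was measured on Affymetrix mouse genome arrays. The deposited values are linear intensities, 1 per probe set, scaled to a trimmed mean of 150 with 2% trimmed at each end, as tested on the values; the authors' software and its version are not given in the sources used here. Of 45101 probe sets, 64 controls were left out, 34945 had 1 gene symbol in the platform annotation, 932 several and 9211 none.

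Intensities were analysed as log2(signal + 32), without further scaling. Probe sets whose mean lay under the 40th percentile (signal 15.5) were dropped and each gene was represented by its brightest probe set, leaving 12367 genes. A model of 4 group means over all 21 arrays was fitted by limma (version 3.58.1, under R version 4.3.3), leaving 17 residual degrees of freedom, with Benjamini-Hochberg adjustment over all genes and a threshold of 0.05. It gave 5 contrasts: CD15 positive minus negative in each model, their difference, their average, and Math1-GFP minus conventional. The fit was tested on simulated data with independent noise on every array. That simulation leaves out the correlation within conventional pairs given below, so it cannot show how the fit performs under it. The number of arrays limits the precision.

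Groups were taken from the sample titles. Deviations from group means correlated at 0.58 to 0.76 within the 5 conventional pairs of equal title number and at most at 0.48 between other conventional arrays apart from the unnumbered arrays (0.72), so a fit with the title number as a replicate block was made, as a random block (correlation 0.51) for the comparison of models. All fits with this block left out the unnumbered conventional arrays. Correlations used 100000 permutations, or exact permutation for 6 arrays. Alternatives were quantile normalization, other pseudocounts and filters, all or averaged probe sets, fits of fewer samples, blocks and left-out arrays.

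The members and the gene lists were chosen with earlier results of these data known. Text values were given for every called member and, in each role, for the 2 members of highest mean level and the 2 of smallest p in the conventional CD15 contrast and in the comparison of models, and up to 3 called genes of each other list. Promoter windows came from RefSeq (GRCm38.p6), where 23 members had one.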

Additional observations from a re-analysis of the deposited data

Results flagged for a closer look

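In 6 of 68 combinations of a gene and a group, 1 array stood apart from the rest of its group, where the gap to the nearest array as a share of the group's range passed Dixon's 95% critical value. Chance passes it in about 1 of 20 groups. On Math1-GFP CD15 positive array 1 the share was 0.924 for Col1a1 (19.4 against 2.12 on the next array), 0.881 for Lum (45.5 against 20.2), 0.845 for Pdgfrb (33.8 against 7.65) and 0.833 for Mgp (360.3 against 61.1). In the Math1-GFP CD15 negative group Pdgfrb was high on array 10 with a share of 0.769 (11.98 against 2.65), and Bgn was low on array 2 with a share of 0.727 (29.8 against 52.8).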

How the results depend on the processing

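The number of members called for CD15 in conventional tumours, 0 as reported, was 3 with the replicate block (Rgs5, Col1a2 and Pdgfrb), 3 in the numbered pairs alone with the block (Rgs5, Acta2 and Lamb1), 5 with the block and consecutive Math1-GFP numbers as pairs, and 0 to 2 when each array was left out in turn (2 without CD15 negative array 1, 1 without array 6). For the average over models it was 1 with every probe set (Egfl7, higher in CD15 positive cells) and 2 with the block and consecutive numbers. For the comparison of models, 5 as reported, it was 9 with quantile normalization, 2 with a larger pseudocount, 3 with no filter, 3 with a filter at the 60th percentile, 9 with the replicate block, 12 in the numbered arrays alone, 0 without conventional arrays 2 and 4, 2 without these and Math1-GFP CD15 positive array 1, and 2 to 9 when each array was left out in turn. The fit with the replicate block, which also left out the unnumbered arrays, changed no other call of a member. The Math1-GFP CD15 contrast and the interaction stayed at 0 in every setting run. No called value changed sign, but uncalled ones did: in the conventional CD15 contrast Pdgfrb ranged from -1.17 to 0.09 and Col4a1 from -0.58 to 0.39, both highest within the unnumbered arrays and arrays 6. Some settings were chosen after seeing the data. These were the settings without conventional arrays 2 and 4, the fit within the unnumbered arrays and arrays 6, the numbered pairs alone, and the block with consecutive numbers. The causes were not tested. Blocks by title wording and by consecutive numbers gave no value for the comparison of models, and fits of 2 groups served the CD15 contrasts alone. Dim genes such as Pdgfrb and Col1a1 lie near the pseudocount, which limits their fold changes.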
